A study of Homo sapiens with 6 samples.

Results

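The genes described here are 46 genes of autophagy and of the lysosome, read out by PRO-seq, a nuclear run-on assay that sequences the RNA being made by engaged polymerases and so reports transcription, not the amount of mature RNA. They were taken by name from the authors' count table, in which all 46 had a row among 20333 gene intervals. None was under 10 counts in every library, and all 46 passed the filter on low counts that left 19902 intervals for testing. By role, 29 belong to autophagy, 14 to the lysosome, and 3 are the transcription factors TFEB, TFE3 and MITF.

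T47D, the line used, is an established line of luminal breast cancer labelled as positive for the estrogen receptor (ER) and negative for HER2. All 3 arms were grown in medium with growth factors and treated for 5 h. One arm received the solvent DMSO. A further arm received 500 nM of GDC0068, which blocks the enzyme activity of AKT kinases. The remaining arm received 100 nM of INY-05-040, called Degrader below, which makes cells break down AKT protein. The series text states that both doses were selected to suppress signaling downstream of AKT to a similar degree, so the drug arms differ in concentration. Each arm has 2 libraries, 1 from each of 2 independent experiments, and a single cell line at a single time limits what the arms can stand for.

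Autophagy encloses cytoplasmic cargo in a membrane vesicle that then fuses with the lysosome, where hydrolases digest the content. The ULK complex starts the process, the class III PI3-kinase complex marks the forming membrane with PI3P, WIPI proteins read that mark, ATG9 and ATG2 bring in lipid, a conjugation machinery attaches ATG8 proteins to the membrane, and cargo receptors tether cargo to ATG8. AKT is known for phosphorylating FOXO factors and mTORC1 for phosphorylating TFEB, which keeps these factors out of the nucleus. TFEB and its relatives are known for binding CACGTG-type sequences near the starts of lysosomal genes.

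Promoter sequences show how the genes differ at their starts. RefSeq windows on GRCh38.p14, covering 250 bases before and 50 after a transcription start, were found for 36 of the 46 genes. Genes without an entry were CALCOCO1, RB1CC1, UVRAG, LAMP2, CTSB, HEXA, ATP6V1A, ATP6V1B2, ATP6V1C1 and ATP6V1H. Of the 36, 32 have their RefSeq start within 100 bases of the start of the deposited interval. Windows that differ in CACGTG content are printed 5′ to 3′ on the gene's strand, with each CACGTG in capitals. They were picked after the matches and the PRO-seq values were known. In the main edgeR fit ATG14 rose under both drugs, WIPI2 differed between the drugs and ATP6V0D1 fell under Degrader. MCOLN1 and LAMP1 passed the test of that fit under neither drug.
ATG14, chr14:55411781-55412080, minus strand: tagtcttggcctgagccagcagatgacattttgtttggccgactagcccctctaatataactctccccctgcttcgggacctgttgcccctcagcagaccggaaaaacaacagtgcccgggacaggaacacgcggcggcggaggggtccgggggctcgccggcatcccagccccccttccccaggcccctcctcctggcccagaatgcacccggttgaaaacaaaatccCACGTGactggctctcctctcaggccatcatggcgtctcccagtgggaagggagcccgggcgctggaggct
WIPI2, chr7:5189983-5190282, plus strand: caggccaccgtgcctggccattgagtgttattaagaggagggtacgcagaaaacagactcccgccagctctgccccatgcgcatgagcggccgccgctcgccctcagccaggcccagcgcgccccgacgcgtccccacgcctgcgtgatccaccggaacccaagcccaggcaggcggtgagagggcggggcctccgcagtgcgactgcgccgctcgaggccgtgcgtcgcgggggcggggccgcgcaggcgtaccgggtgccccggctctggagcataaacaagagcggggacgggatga
MCOLN1, chr19:7522374-7522673, plus strand: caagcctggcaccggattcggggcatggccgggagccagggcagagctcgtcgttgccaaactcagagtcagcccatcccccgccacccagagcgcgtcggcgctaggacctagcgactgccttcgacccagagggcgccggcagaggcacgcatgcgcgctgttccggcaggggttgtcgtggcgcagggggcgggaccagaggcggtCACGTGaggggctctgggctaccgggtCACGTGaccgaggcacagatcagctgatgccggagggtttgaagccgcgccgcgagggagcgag
LAMP1, chr13:113296989-113297288, plus strand: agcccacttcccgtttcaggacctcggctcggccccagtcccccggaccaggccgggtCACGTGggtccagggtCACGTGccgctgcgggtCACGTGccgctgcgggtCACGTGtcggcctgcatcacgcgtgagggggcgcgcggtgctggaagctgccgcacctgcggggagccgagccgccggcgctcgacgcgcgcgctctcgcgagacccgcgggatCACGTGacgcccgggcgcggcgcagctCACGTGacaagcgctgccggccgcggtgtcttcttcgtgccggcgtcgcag
ATP6V0D1, chr16:67481108-67481407, minus strand: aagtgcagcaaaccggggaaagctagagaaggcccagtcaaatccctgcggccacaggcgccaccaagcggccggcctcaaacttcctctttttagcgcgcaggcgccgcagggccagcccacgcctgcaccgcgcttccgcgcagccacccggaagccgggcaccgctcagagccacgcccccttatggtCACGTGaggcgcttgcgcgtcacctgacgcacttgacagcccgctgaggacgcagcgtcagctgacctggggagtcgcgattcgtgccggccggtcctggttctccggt

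CACGTG, which reads the same on both strands, was present in 4 of the 7 lysosomal windows (57.1%) and in 2 of the 26 autophagy windows (7.69%). Only 7 of the 14 lysosomal genes have a window. CTSB and ATP6V1C1, the 2 lysosomal genes called higher under Degrader, have none. Among all 35116 RefSeq windows of this length, 7.26% held it, and 0.664% held at least 2 copies. LAMP1, a heavily glycosylated protein of the lysosomal membrane, had 6 copies and MCOLN1, the lysosomal calcium channel, had 2. CTSD, ATP6V0D1 and ATG14 had 1 copy each, and ATG3 had 2. The longer GTCACGTG, which contains CACGTG and was searched on both strands, was present in 6 of the 36 windows, in each of the genes just named, against 2.40% of all windows. Of these 6 genes, ATG14 rose and ATP6V0D1 fell under Degrader in the main edgeR fit, and the other genes were not called. With the replicate block described below, MCOLN1 was also called higher and CTSD lower (edgeR adjusted p = 0.0246 and 0.0160). A match describes letters in a window, and binding was not measured.

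Other sequences searched on both strands gave few matches. GTAAACA, a forkhead-type sequence, was in 0 of 26 autophagy windows and in 1 lysosomal window, that of CTSL, against 3.42% of all windows. CAAAACA, a related variant, was in 3 of 26 autophagy windows (11.5%), those of TAX1BP1, GABARAPL1 and ATG4A, against 4.92% of all. TGACGTCA, the cyclic AMP response element, was in the GABARAPL1 window and in 1.85% of all. The RefSeq start of GABARAPL1 lies 552 bases from the start of its deposited interval. Among windows whose start lies within 100 bases, CAAAACA was in 2 of 22 autophagy windows (9.09%) and TGACGTCA in 0 of 32. TCACATG, a sequence of the MITF type, was in 0 of the 36 windows and in 3.36% of all.

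Total counts per library ran from 25371819 to 32192576, and the members' counts from 96 to 8172 per library. All 9 luminal markers looked for, among them ESR1, GATA3 and FOXA1, had rows, at DMSO means from 33.4 CPM (counts scaled to library size) for EPCAM to 1358 CPM for GATA3. Of the 12 markers of basal cells, fibroblasts, leukocytes and endothelium, CD68 alone has a row, and the others are not analysed here. CD68, which is itself a lysosomal membrane protein, read 83.6 and 77.2 CPM under DMSO, 62.6 and 67.6 under GDC0068, and 64.4 and 55.1 under Degrader, and its part in the results was not tested.

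Under Degrader some members of every autophagy role except conjugation rose, and lysosomal genes were called in both directions. Of the 46 genes, 16 rose and 1 fell at an edgeR adjusted p under 0.05, where 15.3% of all genes tested were called, 7.39% as higher and 7.88% as lower. Autophagy accounts for 14 of the 16 increases, 14 of its 29 members, with no member called lower and a median log2 fold change of 0.22 against 0.00 over all genes tested. Among the 14 lysosomal genes 2 rose and 1 fell, with a median of 0.09, and of 0.03 without Degrader replicate 2 and 0.06 without DMSO replicate 2. The autophagy median was 0.18 between libraries numbered 1 and 0.22 between libraries numbered 2, and the lysosomal median was 0.06 and 0.13. The difference between the medians was not tested, because genes of a group are not replicates.

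Libraries with the same number deviate together in these data, so that number was also fitted as a block. With that block, 28 of the 46 genes were called under Degrader, 25 higher and 3 lower, where 30.7% of all genes were called, 15.1% as higher and 15.7% as lower. In 29 of the 46 genes both Degrader libraries lay above both DMSO libraries, and in 6 below, against 29.3% and 29.2% of all genes. No gene called without the block was lost with it. The block's adjusted p is given below for each gene whose call it changed.

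**Figure D1:**
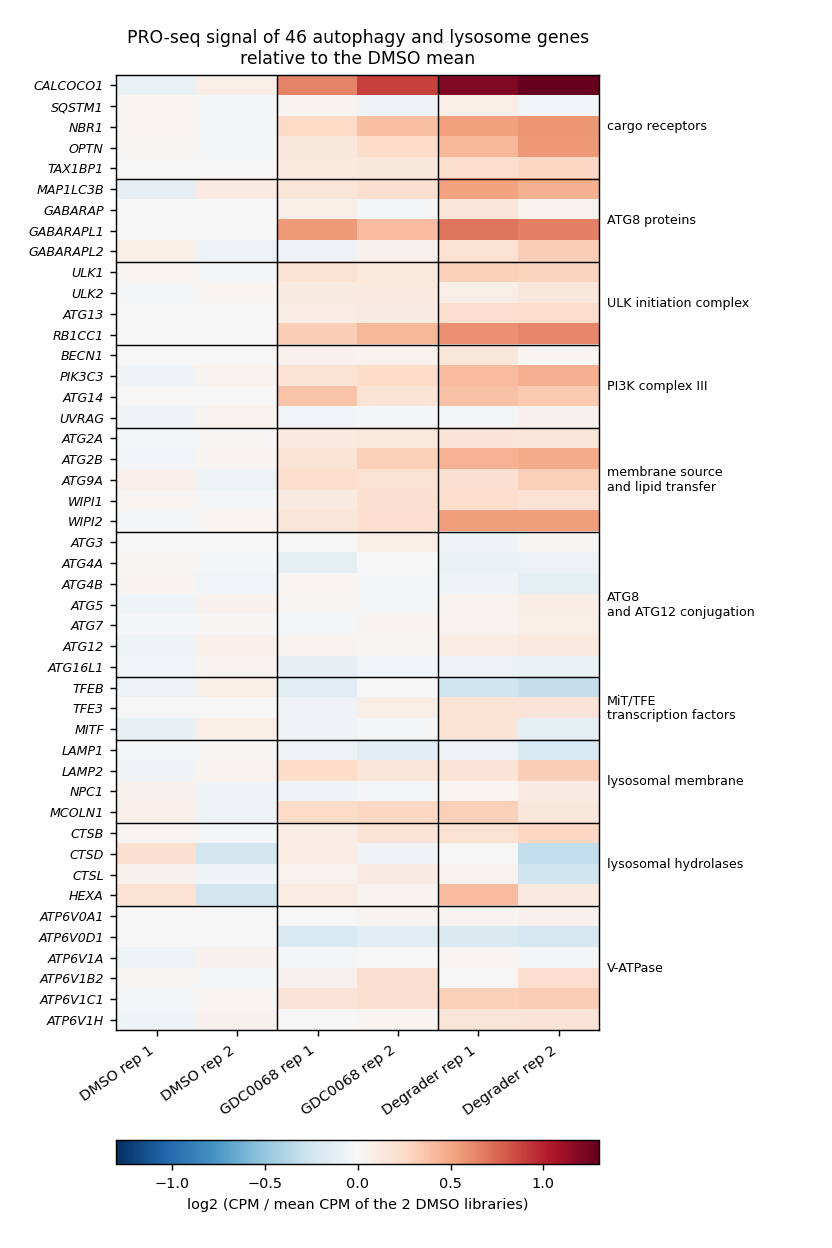
Heat map of the 46 genes (rows, grouped by role) in the 6 libraries (columns); color is log2 of CPM over the mean CPM of the 2 DMSO libraries. Most autophagy rows outside conjugation are redder in the Degrader libraries, with CALCOCO1 reddest and SQSTM1 and UVRAG pale, while conjugation rows stay pale.

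Cargo receptors gave the largest median of any role among the 46 genes, 0.50 on the log2 scale under Degrader, with 4 of 5 called. Receptors on the list of other autophagy genes were not called without the block. Their differences were 0.25 (BNIP3L), 0.21 (CALCOCO2), 0.15 (RETREG1), 0.13 (FUNDC1), 0.09 (NCOA4), 0.08 (TOLLIP) and -0.03 (BNIP3). The edgeR adjusted p ran from 0.0767 to 0.864. With the block BNIP3L, CALCOCO2 and RETREG1 were called (adjusted p = 0.0232, 0.00153 and 0.0260). CALCOCO1 (ENSG00000012822, chr12:53711159-53727446, minus strand, hg38) is a receptor for autophagy of the endoplasmic reticulum and Golgi. Its libraries read 22.4 and 25.2 CPM under DMSO, 37.1 and 44.2 under GDC0068, and 54.8 and 58.4 under Degrader. No arm overlapped another, and both Degrader libraries were highest. CALCOCO1 was 1.25 higher on the log2 scale under Degrader (SE 0.0892, edgeR adjusted p = 3.59e-05) and 0.78 higher under GDC0068 (SE 0.0908, edgeR adjusted p = 0.00274).

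NBR1 (ENSG00000188554, chr17:43171225-43211688, plus strand) binds ubiquitinated cargo. It read 75.7 and 73.4 CPM under DMSO, 89.1 and 98.0 under GDC0068, and 108 and 111 under Degrader. Again the arms had separate ranges, in the order DMSO, GDC0068, Degrader. NBR1 rose by 0.56 under Degrader (SE 0.0564, edgeR adjusted p = 2.08e-04) and by 0.33 under GDC0068 (SE 0.0568, edgeR adjusted p = 0.0138). The GDC0068 call was lost without DMSO replicate 1 (0.35, adjusted p = 0.0826), without DMSO replicate 2 (0.31, adjusted p = 0.0855) and without GDC0068 replicate 2 (0.25, adjusted p = 0.0945), all by edgeR.

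OPTN (ENSG00000123240, chr10:13100163-13138308, plus strand), a receptor for damaged mitochondria and bacteria, read 32.9 and 32.3 CPM under DMSO, 36.0 and 38.6 under GDC0068, and 44.1 and 48.2 under Degrader. Its Degrader libraries stood above all others. OPTN rose by 0.50 under Degrader (SE 0.0688, edgeR adjusted p = 9.73e-04). Under GDC0068 its log2 difference was 0.19 (edgeR adjusted p = 0.148, and 0.0287 with the block).

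TAX1BP1 (ENSG00000106052, chr7:27740169-27828881, plus strand), a ubiquitin-binding receptor, read 98.0 and 98.4 CPM under DMSO, 108 and 109 under GDC0068, and 115 and 118 under Degrader. Steps between arms were small, without overlap. TAX1BP1 rose by 0.25 under Degrader (SE 0.0466, edgeR adjusted p = 0.00513), a call lost without DMSO replicate 1 (0.24, adjusted p = 0.0522) and without Degrader replicate 2 (0.22, adjusted p = 0.0704). The GDC0068 difference of 0.14 had an edgeR adjusted p of 0.116, and of 0.00715 with the block. SQSTM1, which encodes the receptor p62, read 138 and 133 CPM under DMSO, 139 and 131 under GDC0068, and 144 and 132 under Degrader. Its arms overlapped throughout, and its log2 difference under Degrader was 0.03, with a 95% interval from -0.09 to 0.15 (edgeR adjusted p = 0.772).

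Of the 4 ATG8 genes, MAP1LC3B and GABARAPL1 rose under Degrader and GABARAP and GABARAPL2 did not pass the test. MAP1LC3B (ENSG00000140941, chr16:87392336-87404774, plus strand) encodes LC3B, the usual marker of autophagosomes. The libraries gave 23.4 and 27.1 CPM under DMSO, 28.2 and 29.1 under GDC0068, and 36.4 and 34.9 under Degrader. Degrader was above the other arms, while GDC0068 lay just above DMSO. MAP1LC3B rose by 0.50 (SE 0.0837, edgeR adjusted p = 0.00275). The interval overlaps AC010531.3 on the opposite strand, and use of strand in counting is not given in the sources used here.

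GABARAPL1 (ENSG00000139112, chr12:10213429-10223123, plus strand), an ATG8 protein of the GABARAP branch, read 5.20 and 5.22 CPM under DMSO, 7.67 and 6.87 under GDC0068, and 8.43 and 8.20 under Degrader. Both drug arms were above DMSO in every library. GABARAPL1 rose by 0.67 under Degrader (SE 0.128, edgeR adjusted p = 0.00547). Under GDC0068 the difference was 0.48 (edgeR adjusted p = 0.0670, and 0.0100 with the block). GABARAPL2 read 24.6 and 22.2 CPM under DMSO and 26.9 and 29.3 under Degrader, a difference of 0.26 (edgeR adjusted p = 0.0729, and 0.0142 with the block). GABARAP differed by 0.10 (edgeR adjusted p = 0.374). Per kilobase of interval, GABARAP was the highest of the 4 in DMSO at 12.0 CPM per kb and GABARAPL1 the lowest at 0.537, with GABARAPL2 at 2.04 and MAP1LC3B at 2.03. The rise in GABARAPL1 therefore started from the lowest level of the 4. The GABARAP interval is 3181 bases long and overlaps AC120057.2 on the same strand and AC120057.3 on the opposite strand.

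RB1CC1, ULK1 and ATG13, 3 of the 4 ULK complex genes among the 46, rose under Degrader. ATG101, a further subunit read from the list of other autophagy genes, differed by -0.19 (edgeR adjusted p = 0.143). Both its Degrader libraries lay below DMSO. RB1CC1 (ENSG00000023287, chr8:52622458-52714456, minus strand) encodes FIP200, the scaffold of the complex. Its libraries gave 71.2 and 71.9 CPM under DMSO, 89.5 and 96.7 under GDC0068, and 108 and 111 under Degrader. Here too the arms occupied separate ranges with Degrader highest. RB1CC1 rose by 0.62 under Degrader (SE 0.0534, edgeR adjusted p = 1.04e-04) and by 0.38 under GDC0068 (SE 0.0538, edgeR adjusted p = 0.00702). The GDC0068 call was lost without DMSO replicate 1 (0.37, adjusted p = 0.0680) and without GDC0068 replicate 2 (0.32, adjusted p = 0.0544).

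ULK1 (ENSG00000177169, chr12:131894639-131923150, plus strand), the kinase of the complex, read 142 and 137 CPM under DMSO, 160 and 153 under GDC0068, and 173 and 170 under Degrader. Both drug arms were above DMSO without overlap. ULK1 rose by 0.30 under Degrader (SE 0.0487, edgeR adjusted p = 0.00244), and differed by 0.17 under GDC0068 (edgeR adjusted p = 0.0859, and 0.00112 with the block). Its interval overlaps AC131009.4 on the same strand.

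ATG13 (ENSG00000175224, chr11:46617585-46674520, plus strand), an adaptor in the ULK complex, read 80.5 and 81.5 CPM under DMSO, 86.8 and 87.1 under GDC0068, and 94.2 and 94.7 under Degrader. Replicates lay close together and the arms apart. ATG13 rose by 0.22 under Degrader (SE 0.0477, edgeR adjusted p = 0.00982). That call was lost without DMSO replicate 1 (0.21), Degrader replicate 1 (0.23) or Degrader replicate 2 (0.21), at differences close to the 0.22 of the full fit. ULK2, the related kinase, read 145 and 151 CPM under DMSO, 160 and 162 under GDC0068, and 157 and 164 under Degrader. Its difference was 0.12 under each drug, at edgeR adjusted p of 0.133 for Degrader and 0.186 for GDC0068, and at 0.0105 and 0.0131 with the block.

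In the class III PI3-kinase complex, PIK3C3 and ATG14 rose under Degrader, and BECN1 and UVRAG did not pass the test. PIK3R4, a further subunit read from the list of other autophagy genes, differed by 0.04 (edgeR adjusted p = 0.643). PIK3C3 (ENSG00000078142, chr18:41955236-42070518, plus strand) encodes the lipid kinase VPS34. It read 46.7 and 49.7 CPM under DMSO, 54.8 and 56.9 under GDC0068, and 63.6 and 66.4 under Degrader. Each arm was separate from the next. PIK3C3 rose by 0.43 under Degrader (SE 0.0580, edgeR adjusted p = 8.41e-04), and differed by 0.21 under GDC0068 (edgeR adjusted p = 0.0671, and 0.00249 with the block).

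ATG14 (ENSG00000126775, chr14:55366391-55411830, minus strand) directs the complex to sites where autophagosomes form, and its promoter is among those printed above. Its libraries read 56.2 and 56.4 CPM under DMSO, 73.0 and 63.9 under GDC0068, and 73.2 and 71.5 under Degrader. Drug arms overlapped each other and both stood above DMSO. ATG14 rose by 0.36 under Degrader (SE 0.0648, edgeR adjusted p = 0.00410) and by 0.28 under GDC0068 (SE 0.0651, edgeR adjusted p = 0.0406). The GDC0068 call was lost without any 1 of 5 libraries: at 0.18 (adjusted p = 0.185) without GDC0068 replicate 1, at 0.27 and 0.28 without DMSO replicates 1 and 2 (adjusted p = 0.193 and 0.153), and at 0.27 without Degrader replicates 1 and 2 (adjusted p = 0.0576 and 0.0583). In the fit of the 4 libraries of DMSO and GDC0068 it was also lost (adjusted p = 0.0606). BECN1, the regulatory subunit Beclin 1, differed by 0.09 under Degrader and UVRAG, the subunit of the endosomal form of the complex, by 0.02 (edgeR adjusted p = 0.347 and 0.802).

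Among the 5 genes of membrane supply and lipid transfer, ATG2B, WIPI1 and WIPI2 rose under Degrader. WIPI2 (ENSG00000157954, chr7:5190264-5231524, plus strand) reads PI3P and recruits the conjugation machinery. It gave 64.4 and 67.1 CPM under DMSO, 73.2 and 76.5 under GDC0068, and 95.7 and 96.0 under Degrader. Its step from GDC0068 to Degrader was larger than that from DMSO to GDC0068. WIPI2 rose by 0.54 under Degrader (SE 0.0517, edgeR adjusted p = 1.44e-04), and differed by 0.19 under GDC0068 (edgeR adjusted p = 0.0712, and 0.00241 with the block).

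ATG2B (ENSG00000066739, chr14:96279195-96363313, minus strand), which moves lipid into the forming membrane, read 50.4 and 52.6 CPM under DMSO, 58.3 and 63.9 under GDC0068, and 70.4 and 71.8 under Degrader. No 2 arms shared a value. ATG2B rose by 0.47 under Degrader (SE 0.0598, edgeR adjusted p = 6.93e-04) and by 0.25 under GDC0068 (SE 0.0603, edgeR adjusted p = 0.0455). The GDC0068 call was lost without DMSO replicate 1 (0.21, adjusted p = 0.273), DMSO replicate 2 (0.28, adjusted p = 0.126), GDC0068 replicate 2 (0.17, adjusted p = 0.232) and either Degrader library (0.24, adjusted p = 0.0726 and 0.0741). It was also lost with DESeq2 (adjusted p = 0.0843), limma voom (adjusted p = 0.0523), no filter on low counts (adjusted p = 0.0513) and the fit of 4 libraries (adjusted p = 0.0768).

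WIPI1 (ENSG00000070540, chr17:68421281-68457496, minus strand), another PI3P reader, read 200 and 194 CPM under DMSO, 213 and 228 under GDC0068, and 230 and 225 under Degrader. Both drug arms were above DMSO and overlapped each other. WIPI1 rose by 0.21 under Degrader (SE 0.0526, edgeR adjusted p = 0.0219), and the adjusted p was 0.0968 and 0.121 without DMSO replicates 1 and 2, and 0.125 and 0.122 without Degrader replicates 1 and 2. Under GDC0068 its difference was 0.16 (edgeR adjusted p = 0.115, and 0.00294 with the block). The microRNA interval MIR635 lies within WIPI1 on the same strand. ATG9A, the membrane protein of the vesicles that seed autophagosomes, differed by 0.26 under Degrader (edgeR adjusted p = 0.0724, and 0.0185 with the block) and by 0.21 under GDC0068 (edgeR adjusted p = 0.201). ATG2A, the paralog of ATG2B, differed by 0.16 under Degrader (edgeR adjusted p = 0.0502, and 0.00468 with the block) and by 0.13 under GDC0068 (edgeR adjusted p = 0.171, and 0.0335 with the block).

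**Figure D2:**
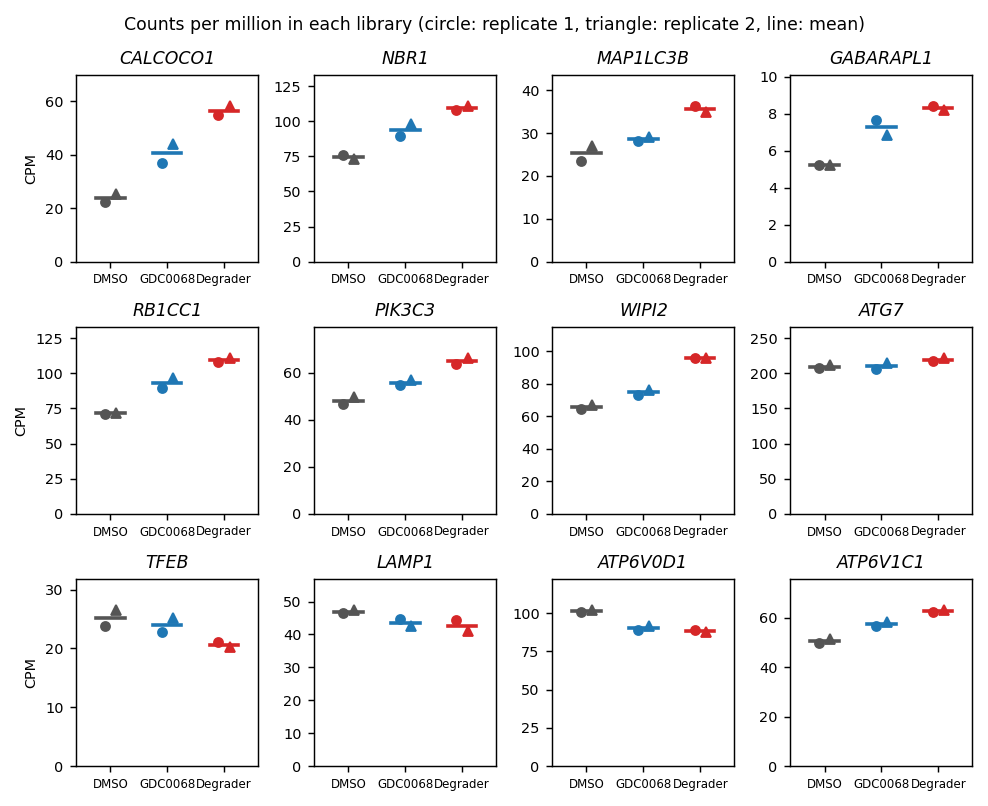
CPM (vertical axes, each from 0) of 12 genes in the 6 libraries by arm; circles are replicate 1, triangles replicate 2 and lines the mean of the 2 libraries. CALCOCO1, NBR1, RB1CC1, PIK3C3 and WIPI2 step up from DMSO through GDC0068 to Degrader, ATG7 stays between 206 and 222 CPM, and ATP6V0D1 is lower in both drug arms.

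The 7 genes of ATG8 and ATG12 conjugation were the autophagy role with no call. ATG7, the E1-like enzyme, read 207 and 212 CPM under DMSO, 206 and 215 under GDC0068, and 217 and 222 under Degrader. GDC0068 overlapped DMSO and Degrader lay slightly above both (log2 difference 0.07, edgeR adjusted p = 0.412). The other genes, ATG3, ATG4A, ATG4B, ATG5, ATG12 and ATG16L1, encode the E2-like enzyme, proteases that process ATG8, and the proteins of the ATG12 conjugate. Under Degrader the 7 differences ran from -0.09 to 0.12 with a median of -0.02. By edgeR 0 of 7 were called in any of the 3 contrasts, 0 had an unadjusted p under 0.05, and 0 were called by DESeq2, by limma voom or with the block. Over all genes tested, 15.3%, 3.58% and 0.266% were called in the Degrader, GDC0068 and direct contrasts, and 29.9%, 20.0% and 14.1% had an unadjusted p under 0.05. The 95% intervals under Degrader were widest for ATG4A (-0.33 to 0.15) and ATG12 (-0.05 to 0.28), and ran from -0.04 to 0.18 for ATG7, -0.05 to 0.19 for ATG5 and -0.21 to 0.03 for ATG4B. Conjugation genes on the list of other autophagy genes were not called under Degrader without the block. Their differences were 0.13 (ATG10), 0.10 (ATG16L2), 0.06 (ATG4C) and -0.10 (ATG4D), at edgeR adjusted p from 0.224 to 0.738. With the block ATG10 was called (adjusted p = 0.0114). The 22 autophagy members outside conjugation had 14 called under Degrader and a median of 0.28.

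The autophagy genes that rose under Degrader had a median interval length of 40.9 kb, against 29.4 kb for those not called and 14.4 kb over all genes tested. Across the 29 autophagy genes, Spearman's rho of the Degrader log2 fold change was -0.17 with interval length and -0.28 with DMSO CPM, over genes that share the same libraries. Of the 46 intervals, 7 overlap another interval on the same strand and 12 on either strand.

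Among the 3 transcription factors, 0 were called by edgeR, DESeq2 or limma voom under either drug. Under Degrader 2 of them, TFEB and TFE3, had an unadjusted edgeR p under 0.05, and under GDC0068 0 did, against 29.9% and 20.0% of all genes tested. TFEB (ENSG00000112561), a master regulator of lysosomal genes, read 23.8 and 26.5 CPM under DMSO, 22.7 and 25.2 under GDC0068, and 21.0 and 20.3 under Degrader. Both Degrader libraries lay below those of the other arms. The log2 difference was -0.29 (SE 0.0919, edgeR adjusted p = 0.0569), with an adjusted p of 0.00748 with the block, 0.0460 in the fit of the 4 libraries compared, 0.0479 with robust estimation, and 0.0446 and 0.0459 without GDC0068 replicates 1 and 2. Other alternatives kept it above the threshold: the adjusted p was 0.0851 with DESeq2, 0.0548 with limma voom, 0.0560 without TMM and 0.0572 without the filter on low counts. It was 0.0960 and 0.286 without DMSO replicates 1 and 2, where the difference was -0.37 and -0.21, and 0.138 and 0.231 without Degrader replicates 1 and 2. Under GDC0068 the TFEB difference was -0.07 (edgeR adjusted p = 0.715).

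TFE3, a relative of TFEB, read 36.0 and 35.9 CPM under DMSO, 34.8 and 37.9 under GDC0068, and 40.6 and 40.3 under Degrader. Its Degrader libraries were the highest, opposite to TFEB. The TFE3 difference was 0.17 under Degrader (edgeR adjusted p = 0.103, and 0.0317 with the block) and 0.02 under GDC0068 (edgeR adjusted p = 0.920). MITF, the melanocyte-lineage member of the family, had the lowest level of all 46 genes per kilobase in DMSO, 0.0600 CPM per kb. It read 12.9 and 14.6 CPM under DMSO, 13.3 and 13.5 under GDC0068, and 15.6 and 12.7 under Degrader, with all arms overlapping (edgeR adjusted p = 0.833 for Degrader).

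The 14 lysosomal genes had log2 differences from -0.20 to 0.32 under Degrader. CTSB (ENSG00000164733, chr8:11844355-11868087, minus strand), the cysteine protease cathepsin B, read 87.9 and 85.2 CPM under DMSO, 92.8 and 97.9 under GDC0068, and 99.3 and 104 under Degrader. Its arms did not overlap, and Degrader was highest. CTSB rose by 0.23 under Degrader (SE 0.0518, edgeR adjusted p = 0.0129), and the call was lost without DMSO replicates 1 and 2 (adjusted p = 0.0652 and 0.0780) and without Degrader replicate 2 (0.19, adjusted p = 0.140). Under GDC0068 its difference was 0.14 (edgeR adjusted p = 0.158, and 0.0167 with the block). The interval overlaps AC025857.2 on the same strand.

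Other hydrolases did not pass the test. CTSD, the aspartic protease cathepsin D and the highest of the 46 genes per kilobase at 19.8 CPM per kb in DMSO, read 254 and 187 CPM under DMSO, 235 and 214 under GDC0068, and 220 and 177 under Degrader. Replicate 1 was above replicate 2 in every arm, and the arms overlapped. The interval overlaps AC068580.3 on the opposite strand. The Degrader difference was -0.15 (edgeR adjusted p = 0.467), and -0.14 with the block (adjusted p = 0.0160). Its direction turned without DMSO replicate 1 (0.09), and the difference was -0.36 without DMSO replicate 2, -0.32 without Degrader replicate 1 and -0.01 without Degrader replicate 2. HEXA, a subunit of beta-hexosaminidase, differed by 0.26 under Degrader (edgeR adjusted p = 0.242), and by 0.27 with the block (adjusted p = 0.0388). That difference was 0.50 and 0.06 without DMSO replicates 1 and 2, and 0.12 and 0.38 without Degrader replicates 1 and 2. CTSL, cathepsin L, had the fewest counts of the 46 genes and a Degrader difference of -0.10 with a 95% interval from -0.47 to 0.26.

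In the lysosomal membrane 0 of 4 genes were called by edgeR, DESeq2 or limma voom under Degrader, and 2 had an unadjusted edgeR p under 0.05, against 15.3% of all genes called and 29.9% with such a p. LAMP1 read 46.4 and 47.4 CPM under DMSO, 44.7 and 42.5 under GDC0068, and 44.4 and 41.0 under Degrader. All 4 drug libraries lay below DMSO, with differences of -0.14 under Degrader (edgeR adjusted p = 0.177) and -0.11 under GDC0068 (edgeR adjusted p = 0.386). MCOLN1 read 23.7 and 21.7 CPM under DMSO, 27.0 and 27.4 under GDC0068, and 28.2 and 25.1 under Degrader, so that the drug libraries lay above DMSO. Its differences were 0.23 under Degrader (edgeR adjusted p = 0.107, and 0.0246 with the block) and 0.26 under GDC0068 (edgeR adjusted p = 0.133, and 0.0175 with the block). The LAMP1 and MCOLN1 windows printed above both hold several CACGTG, and the PRO-seq levels of these genes lay on opposite sides of DMSO. LAMP2, the partner of LAMP1, differed by 0.25 under Degrader (edgeR adjusted p = 0.0812, and 0.0190 with the block) and NPC1, the cholesterol exporter, by 0.06 (edgeR adjusted p = 0.553).

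The V-ATPase pumps protons into the lysosome, and its genes did not move together. ATP6V1C1 (ENSG00000155097, chr8:103021079-103069076, plus strand), subunit C of the cytosolic part, read 49.6 and 51.2 CPM under DMSO, 56.6 and 58.4 under GDC0068, and 62.4 and 63.0 under Degrader. ATP6V0D1 (ENSG00000159720, chr16:67438019-67481157, minus strand), subunit d of the membrane part, read 101 and 102 CPM under DMSO, 88.7 and 91.4 under GDC0068, and 89.3 and 87.4 under Degrader. Drug libraries were thus all higher for ATP6V1C1 and all lower for ATP6V0D1. ATP6V1C1 rose by 0.32 under Degrader (SE 0.0539, edgeR adjusted p = 0.00314), with 0.19 under GDC0068 (edgeR adjusted p = 0.0758, and 0.00610 with the block).

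ATP6V0D1 fell by 0.20 on the log2 scale under Degrader (SE 0.0484, edgeR adjusted p = 0.0180), the only decrease called among the 46 genes. The adjusted p was 0.0787 and 0.0862 without DMSO replicates 1 and 2, and 0.0648 and 0.125 without Degrader replicates 1 and 2. Under GDC0068 its difference was -0.17 (edgeR adjusted p = 0.0728, and 0.00238 with the block). ATP6V1H, subunit H, differed by 0.16 under Degrader (edgeR adjusted p = 0.0600, and 9.59e-04 with the block). ATP6V0A1, ATP6V1A and ATP6V1B2 differed by 0.05, 0.00 and 0.11 under Degrader, and none was called with or without the block.

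**Figure D3:**
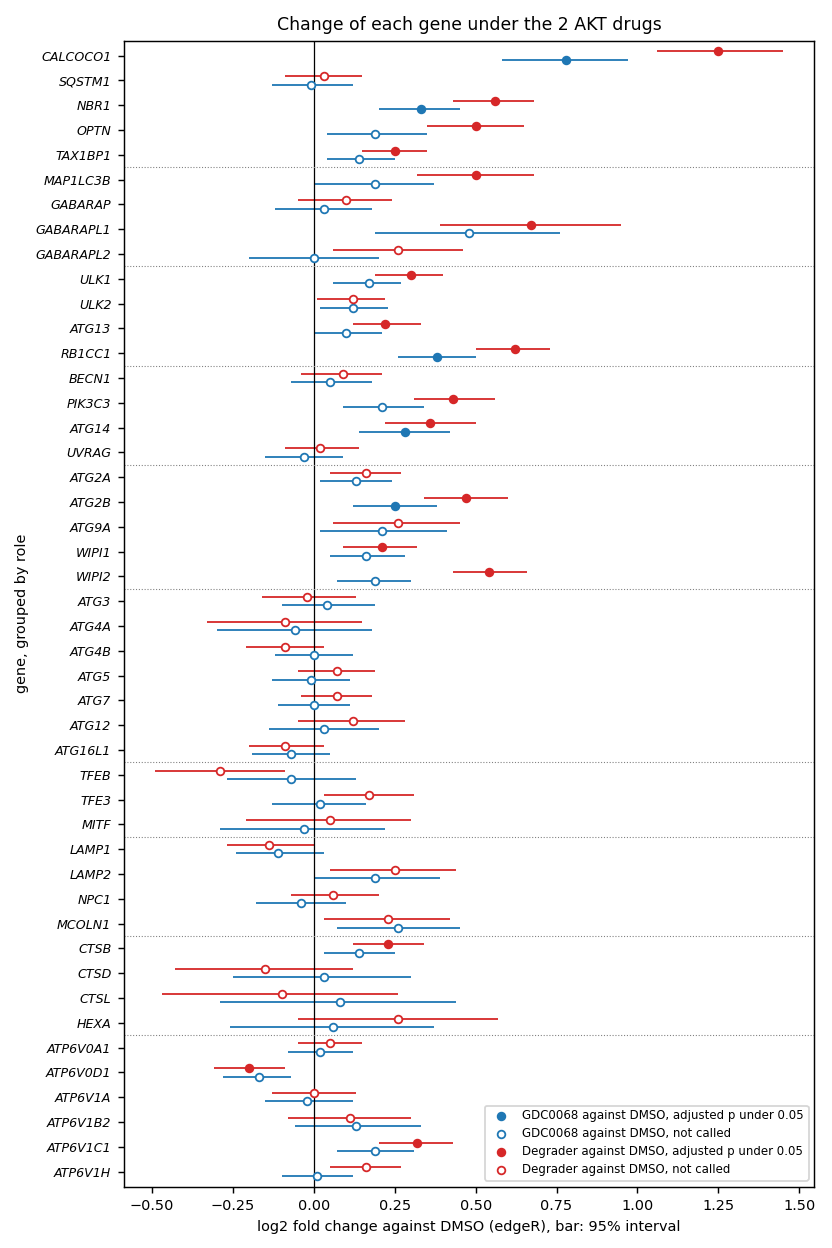
Log2 fold change against DMSO (horizontal axis) of the 46 genes grouped by role, blue for GDC0068 and red for Degrader, with 95% intervals from edgeR; filled points have an adjusted p under 0.05. Filled red points number 17, of which ATP6V0D1 alone is below 0, and filled blue points number 5.

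Under GDC0068, CALCOCO1, NBR1, RB1CC1, ATG14 and ATG2B rose, with the values given above, and none fell. These are 5 of 46 by edgeR, where 3.58% of all genes tested were called, 1.70% as higher and 1.88% as lower. All 5 are autophagy genes, whose median log2 fold change was 0.13 against 0.01 over all genes. Between libraries of the same number that median was 0.13 and 0.12. With the block 18 of the 46 genes were called, 17 higher and 1 lower, where 17.8% of all genes were called, 8.87% as higher and 8.91% as lower. Both GDC0068 libraries lay above both DMSO libraries in 23 genes and below in 3, against 26.1% and 24.0% of all genes. Leaving out libraries lowered the count to 1 without DMSO replicate 1, to 2 without DMSO replicate 2 or GDC0068 replicate 2, to 3 without either Degrader library and to 4 without GDC0068 replicate 1, and CALCOCO1 was called each time.

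Of the 14 lysosomal genes 0 were called under GDC0068 by edgeR, DESeq2 or limma voom, and 5 had an unadjusted edgeR p under 0.05 (35.7%), against 3.58% of all genes called and 20.0% with such a p. Their median was 0.04, and 0.14 without DMSO replicate 1. The contrasts of the drugs with DMSO share the DMSO libraries, so the direction a gene takes under each is not independent.

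Set directly against each other, the drugs differed at 1 of the 46 genes by edgeR, where 0.266% of all genes tested were called. WIPI2 was 0.36 higher under Degrader than under GDC0068 (SE 0.0515, 95% interval 0.24 to 0.47, edgeR adjusted p = 0.0209). That call was lost without GDC0068 replicate 1 (0.33, adjusted p = 0.180), Degrader replicate 1 (0.36, adjusted p = 0.165) or Degrader replicate 2 (0.35, adjusted p = 0.159). With the block 13 of 46 genes were called, 12 higher and 1 lower under Degrader, where 10.4% of all genes were called, 5.03% as higher and 5.35% as lower. Both Degrader libraries lay above both GDC0068 libraries in 25 genes and below in 3, against 22.1% and 22.9% of all genes. These arms share no library, but differ in dose as well as in compound.

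CALCOCO1 came next, at 0.48 higher under Degrader with a 95% interval from 0.29 to 0.66 (edgeR adjusted p = 0.0508, and 2.66e-06 with the block). Called with the block alone and higher under Degrader were also RB1CC1 (0.24, adjusted p = 2.68e-04), NBR1 (0.23, adjusted p = 7.28e-04), OPTN (0.31, adjusted p = 0.00111), ATG2B (0.22, adjusted p = 0.00280), PIK3C3 (0.22, adjusted p = 0.00313) and MAP1LC3B (0.32, adjusted p = 0.00481). ATP6V1H (0.15, adjusted p = 0.00750), ULK1 (0.13, adjusted p = 0.0120), GABARAPL2 (0.26, adjusted p = 0.0340) and ATG13 (0.12, adjusted p = 0.0490) complete the higher group, and CTSD was lower (-0.18 without the block, adjusted p = 0.00941 with it). Without the block their edgeR adjusted p ranged from 0.0904 for OPTN to 0.558 for CTSD.

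Among genes not called in this contrast with or without the block, the width of the 95% interval varied. Of those, named after their values were seen, ATG14 differed by 0.08 (95% interval -0.06 to 0.22), WIPI1 by 0.05 (-0.07 to 0.16), ULK2 by -0.01 (-0.11 to 0.10) and ATP6V0D1 by -0.03 (-0.13 to 0.08). The interval was wider for GABARAPL1 (-0.07 to 0.47), HEXA (-0.10 to 0.51) and CTSL (-0.55 to 0.19). For TFEB (-0.42 to -0.01), TFE3 (0.01 to 0.30) and ATP6V1C1 (0.01 to 0.24) it did not include 0. Over the 29 autophagy genes the median difference between the drugs was 0.08, and over the 14 lysosomal genes it was 0.02, against 0.00 over all genes tested. Among the lysosomal genes 0 were called by edgeR, DESeq2 or limma voom, and 2 had an unadjusted edgeR p under 0.05 (14.3%), against 14.1% of all genes tested.

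**Figure D4:**
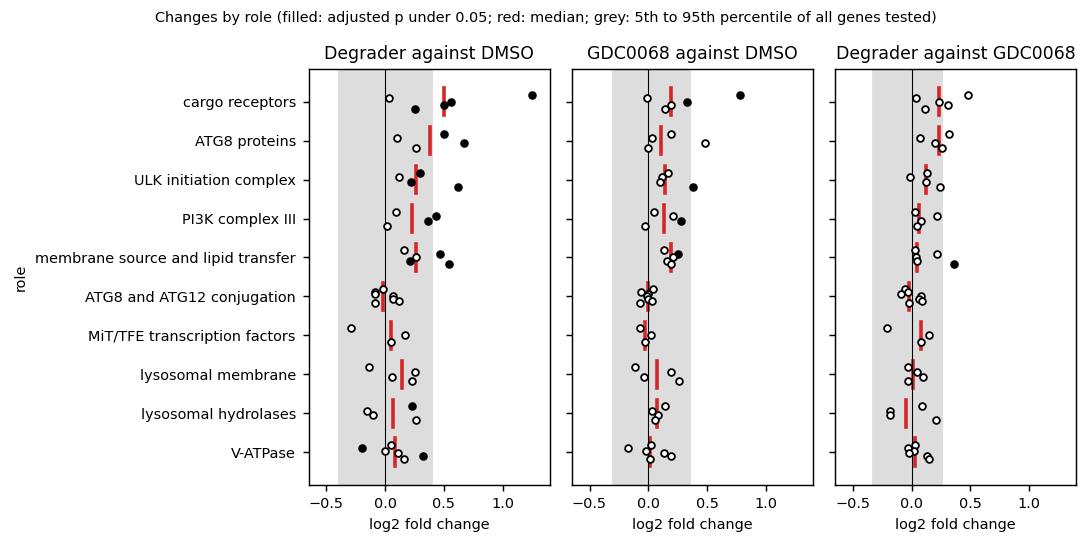
Log2 fold change (horizontal axes) of each gene by role in the 3 contrasts; filled points have an edgeR adjusted p under 0.05, red bars mark role medians, and the grey band spans the 5th to 95th percentile of all genes tested. Under Degrader the receptor median is 0.50 and the conjugation median is -0.02.

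Further genes of the pathway were read from lists of other autophagy genes and other lysosomal genes. Of 47 other autophagy genes tested, 7 rose (14.9%) and 0 fell under Degrader, against 7.39% and 7.88% of all genes. Their median was 0.10. With the block 20 were called higher and 3 lower, against 15.1% and 15.7% of all genes. The 3 lower were TP53INP2 (-0.24, edgeR adjusted p = 3.08e-04 with the block and 0.0610 without), VCP (-0.13, 0.0363 and 0.143) and WDR45B (-0.10, 0.0449 and 0.279). TP53INP1, a p53-induced protein that binds ATG8, read 42.2 and 43.1 CPM under DMSO, 58.7 and 60.3 under GDC0068, and 77.3 and 74.9 under Degrader. Its arms stood wide apart. TP53INP1 rose by 0.84 under Degrader (SE 0.0541, edgeR adjusted p = 2.66e-05) and by 0.48 under GDC0068 (SE 0.0547, edgeR adjusted p = 0.00223). It was 0.35 higher under Degrader than under GDC0068 (edgeR adjusted p = 0.0246), with an adjusted p of 0.0511 without DMSO replicate 2, 0.193 and 0.0516 without GDC0068 replicates 1 and 2, and 0.189 and 0.142 without Degrader replicates 1 and 2.

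PINK1, the kinase that marks damaged mitochondria for autophagy, read 14.8 and 15.0 CPM under DMSO, 22.5 and 21.4 under GDC0068, and 24.2 and 27.1 under Degrader. Both drug arms were well above DMSO. PINK1 rose by 0.79 under Degrader (SE 0.0915, edgeR adjusted p = 4.33e-04) and by 0.56 under GDC0068 (edgeR adjusted p = 0.0113). The GDC0068 call was lost without DMSO replicates 1 and 2 (adjusted p = 0.100 and 0.0698) and GDC0068 replicate 2 (adjusted p = 0.0501), and PINK1-AS overlaps it on the opposite strand. ZFYVE1, which marks the membrane sites where autophagosomes arise, rose by 0.55 under Degrader (SE 0.0573, edgeR adjusted p = 2.50e-04) and by 0.30 under GDC0068 (edgeR adjusted p = 0.0213). The latter call was lost without DMSO replicate 1 (0.22, adjusted p = 0.177) and GDC0068 replicates 1 and 2 (adjusted p = 0.0607 and 0.108). EPG5, a tether for fusion with the lysosome, rose by 0.38 under Degrader (SE 0.0529, edgeR adjusted p = 0.00112), and WDR45, PLEKHM1 and FYCO1 complete the 7. Under GDC0068 4 of the 47 rose (8.51%), against 1.70% of all genes, the fourth being VAMP8, a fusion protein (0.26, edgeR adjusted p = 0.0454). VAMP8 lost its call without any 1 of the 6 libraries, at adjusted p from 0.0784 to 0.213, and with DESeq2 (0.107), limma voom (0.0516), no filter on low counts (0.0513) and the fit of 4 libraries (0.0771).

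Of 62 other lysosomal genes tested, 12 rose (19.4%) and 4 fell under Degrader, against 7.39% and 7.88% of all genes. Their median was 0.01. Among the 46 genes, 48.3% of autophagy and 14.3% of lysosomal members were called higher. That order did not hold on the further lists, at 14.9% of other autophagy and 19.4% of other lysosomal genes. With the block 20 of the 47 other autophagy genes were called higher, and 18 of the 62 other lysosomal genes. Under GDC0068 1 of the 62 rose and 1 fell, against 1.70% and 1.88% of all genes. SMPD1, acid sphingomyelinase, rose by 0.50 (edgeR adjusted p = 0.0143), NPC2, a cholesterol carrier, by 0.43 (edgeR adjusted p = 0.0141), and CTSA, cathepsin A, by 0.37 (edgeR adjusted p = 0.00845). Each of these calls was lost without Degrader replicate 2 (adjusted p = 0.112, 0.124 and 0.0764). SMPD1 and NPC2 also lost theirs without DMSO replicate 1 (adjusted p = 0.127 and 0.117), and CTSA without DMSO replicate 2 (adjusted p = 0.0624). LAPTM4B, a lysosomal membrane protein, read 61.6 and 61.8 CPM under DMSO, 52.9 and 52.9 under GDC0068, and 50.6 and 48.8 under Degrader. Its drug libraries were all below DMSO. LAPTM4B fell by 0.31 under Degrader (edgeR adjusted p = 0.00332) and by 0.22 under GDC0068 (edgeR adjusted p = 0.0454). VPS11, a subunit of lysosomal tethering complexes, rose by 0.24 under GDC0068 (edgeR adjusted p = 0.0455). Those 2 GDC0068 calls were lost without any 1 of the 6 libraries, at adjusted p from 0.0614 to 0.195 for LAPTM4B and from 0.0582 to 0.282 for VPS11. Both were also lost with DESeq2 (0.104 and 0.0955), limma voom (0.0513 and 0.0523) and the fit of 4 libraries (0.0628 and 0.0610), and VPS11 without the filter on low counts (0.0505).

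Among 16 other V-ATPase genes tested, ATP6V0A2, a subunit of the membrane part, fell by 0.29 under Degrader (edgeR adjusted p = 0.0126) and none rose, so that 6.25% were called against 15.3% of all genes. The ATP6V0A2 call was lost without DMSO replicate 1 (adjusted p = 0.0857) and Degrader replicate 2 (adjusted p = 0.110). Of 12 genes of the Rag GTPases and their regulators, which control mTORC1 and TFEB at the lysosome, FNIP1 and FLCN rose under Degrader, 16.7% against 7.39% of all genes called higher. FNIP1 read 221 and 225 CPM under DMSO, 255 and 257 under GDC0068, and 299 and 287 under Degrader, with no overlap between arms. FNIP1 rose by 0.39 under Degrader (SE 0.0502, edgeR adjusted p = 6.74e-04). FLCN, its partner, rose by 0.26 (edgeR adjusted p = 0.0115), with an adjusted p of 0.0901 and 0.0512 without DMSO replicates 1 and 2, and of 0.0683 and 0.0763 without Degrader replicates 1 and 2.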

How the data were processed

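PRO-seq was measured in 6 libraries of T47D cells. The authors deposited raw counts per gene interval in 1 table, whole numbers with unequal totals from 25371819 to 32192576, with Ensembl identifier, name, chromosome, start, end and strand per the file headers. The submitters' processing notes name cutadapt 1.14, Bowtie 1.2.2, SAMtools 1.3.1, HISAT2 2.2.1 and limma without roles, and the builds hg38 and dm3. The counting tool, the part of a gene counted, treatment of duplicates, use of strand and any spike-in are not given in the sources used here. Each could move counts. Scaling to library totals removes a change common to all genes.

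Groups and replicate numbers came from the sample titles. Counts were fitted in R 4.3.3 with edgeR 4.0.16. A gene entered when filterByExpr kept it (minimum count 10, minimum total 15), which removed 431 of 20333 intervals. TMM factors ran from 0.9966 to 1.0034, and 1 quasi-likelihood fit held all 6 libraries with a term per arm (3 residual degrees of freedom, biological coefficient of variation 5.512%). Calls were made where p, adjusted by Benjamini-Hochberg over 19902 genes, was under 0.05. Every adjusted p in the text is edgeR's unless another tool is named. The SE is the log2 fold change over the square root of F. With 2 libraries per arm no exact test over samples can pass 0.05. DESeq2 1.42.0 and limma 3.58.1 (voom) were alternatives, with other scalings and filters, robust estimation, fits of 4 libraries, and each library left out. The steps were tested on simulated counts.

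The series describes 2 independent experiments. Same-numbered libraries deviated together, with correlations of 0.177 (DMSO and GDC0068), 0.220 (DMSO and Degrader) and 0.204 (the 2 drugs), so the number was used as a block in a second fit.

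The 46 genes, the further lists and the tests were chosen with earlier results of these data known. All members may be named: library values went to those called in any contrast and to TFEB, TFE3 and MITF. They also went to the 3 highest and 3 lowest not called against DMSO, and to others for contrast. Of the highest, ATG9A and HEXA are given by their differences alone, and GABARAPL2 without its GDC0068 libraries. From the further lists up to 4 called genes per list and contrast with the smallest adjusted p were named, and other genes for contrast. Motifs and printed promoters (RefSeq, GRCh38.p14) were chosen after values were seen.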

Additional observations from a re-analysis of the deposited data

How the results depend on the processing

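The number of genes called under Degrader was 17, and 28 with the replicate block, 12 to 18 with each library left out in turn. Under GDC0068 it was 5, 18 with the block, 3 in the fit of the 4 libraries compared and 1 to 4 with a library left out. Between the drugs it was 1, 13 with the block, 2 with DESeq2, limma voom, robust estimation or no filter on low counts, and 0 to 2 with a library left out. The block changed no call of the 46 genes other than those given with its adjusted p.

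The autophagy median under Degrader was 0.22, 0.25 over intervals that overlap no other on the same strand, and 0.19 to 0.23 with a library left out. Under GDC0068 it was 0.13, and 0.13 with DESeq2, without the filter and in the fit of 4 libraries, and 0.09 to 0.14 with a library left out. The lysosomal median was 0.09 under Degrader (0.03 to 0.11 with a library left out), 0.04 under GDC0068 (0.03 to 0.14) and 0.02 between the drugs (0.01 to 0.06, and 0.00 over non-overlapping intervals). Between the drugs the autophagy median of 0.08 was 0.08 to 0.11 with a library left out. No median changed sign in the alternatives run.

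Signs of single genes were followed with 1 library left out only for the genes named for a contrast. Against DMSO these included the called members, the highest and lowest not called, and TFEB, TFE3 and MITF. Between the drugs they were WIPI2 and TP53INP1 alone. Among the genes followed, reversals were confined to those not called in any contrast without the block. For other genes, such as SQSTM1 under Degrader or ATG14 between the drugs, reversals were not looked for. Under Degrader, CTSD ranged from -0.36 to 0.09, positive without DMSO replicate 1, and MITF from -0.11 to 0.18, negative at -0.04 without DMSO replicate 1 and lowest without Degrader replicate 1. Under GDC0068, TFEB ranged from -0.16 to 0.01 and MITF from -0.12 to 0.05, both positive without DMSO replicate 2, and TFE3 from -0.05 to 0.07, negative without GDC0068 replicate 2. The cause of these shifts was not tested. Depth limits CTSL most, at 96 counts in its lowest library.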
